A study of Mus musculus with 20 samples.

Results

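A set of 10 genes of the NF-kB system was followed in lung eosinophils: the 5 subunits of the transcription factor (Nfkb1, Nfkb2, Rel, Rela and Relb) and 5 genes that restrain or modify it (Nfkbia, Nfkbib, Nfkbie, Nfkbiz and Tnfaip3). They were matched by symbol to 10 of the 49315 gene identifiers in the deposited count tables, and all 10 passed the filter on low counts. Gene expression was measured by RNA sequencing of eosinophils sorted by flow cytometry from mouse lung, each library being a pool from 3 to 5 mice. The grafts taken at day 7 without costimulatory blockade (n = 5 pools) came from Balb/c donors and had been placed into C57BL/6 recipients. Costimulatory blockade (CSB) is a treatment that interrupts costimulation of T cells and so dampens graft rejection. Their group rests on the sample titles, since the treatment field names no agent and the shared growth protocol speaks only of grafts with blockade. The resting lungs (n = 5 pools) were those of untreated C57BL/6 mice. Per the labels, the eosinophils in the grafts derived from the recipient. Grafts taken with blockade, at day 7 and at day 30, belong to the same study and were not analysed here.

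NF-kB is a family of dimeric transcription factors held in the cytoplasm by inhibitor proteins of the IkB type. When a receptor for tumor necrosis factor, interleukin-1 or a microbial product is engaged, the IKK kinase complex phosphorylates the inhibitor, the inhibitor is degraded and the dimer enters the nucleus. Several genes of the inhibitors are themselves NF-kB targets, which gives the pathway a negative feedback, and in granulocytes it serves survival and the release of cytokines.

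All 10 genes were well covered, with between 619 and 38132 counts in any library. Total counts per library were 15695074 to 26683784 in the day 7 grafts and 6666577 to 12883144 in resting lung. Levels are given as CPM, read counts brought to a common library size, with factors from the trimmed mean of M values (TMM) that correct for composition. Each group came from a table of its own, with deeper libraries for the grafts, so batch and group cannot be told apart. Nothing in the labels says that pools were independent beyond being separate samples, and p-values set the group difference against the spread between pools. In bulk libraries, fewer cells of a type and less RNA per cell cannot be told apart. Of 15 eosinophil markers, none at 0 in any library, 1 was called higher and 6 lower in grafts. The one higher was the lectin Siglecf (221.8 ± 70.2 CPM in grafts and 147.7 ± 34.5 CPM in resting lung, SD, n = 5 each). The 6 lower were genes of granule proteins, with no overlap between the groups. Epx, the eosinophil peroxidase, averaged 6.89 ± 3.83 CPM in grafts and 93.1 ± 69.2 CPM in resting lung, and Prg2, the major basic protein, 81.5 ± 52.7 and 463.1 ± 186 CPM. Prg3, Ear1, Ear2 and Ear6 had log2 fold changes of -2.81, -2.04, -1.97 and -1.79. The receptors Ccr3 (442.6 ± 254 CPM in grafts and 355.8 ± 141 CPM in resting lung) and Il5ra (45.7 ± 24.5 and 52.9 ± 19.3 CPM) were not called. RNA of other cells was present too. The 14 markers of monocytes and macrophages summed to 4939 to 11561 CPM in grafts and 2328 to 3369 CPM in resting lung, with 11 of 14 called higher, and the 12 T cell markers, all called higher, to 401 to 1023 CPM and 104 to 149 CPM. The 13 neutrophil markers summed to 5332 to 10824 CPM in grafts and 9463 to 12629 CPM in resting lung. Of them 5 were called lower (Camp, Ltf, Ngp, Elane and Mpo) and 0 higher. The other 8, S100a8, S100a9, Csf3r, Cxcr2, Ly6g, Retnlg, Mmp8 and Mmp9, were not called. Retnlg alone averaged 4288.5 ± 2548.5 CPM in grafts and 5355.6 ± 2254.1 CPM in resting lung. The 10 lung endothelial markers, all called lower, summed to 81.7 to 151 CPM and 1979 to 2694 CPM. The 9 lung epithelial markers, with 8 called lower, summed to 34.5 to 463 CPM and 3134.5 to 4449 CPM. None of these markers was at 0 in any library. Their part in the results below was not tested.

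The promoters of these genes are shown first because NF-kB is known to bind upstream of several of its own genes. RefSeq promoter sequences on GRCm38.p6 (the mm10 build) matched 7 of the 10 genes, with 10 windows among them. Within the 250 bases before the annotated start, the kB consensus (10 bases, searched on both strands) was found in 5 of the 7 genes, namely Nfkb2, Nfkbia, Nfkbie, Rel and Tnfaip3, against 8.23% of all 27025 genes with such a window. Rela and Nfkbib held no match. The TTCNNNGAA motif of STAT factors, searched on both strands, was found in 1 of the 7, Nfkb2, against 8.13% of all genes. A match is a description of the letters and does not show binding. Below, capitals mark bases of a kB consensus match. For Nfkbia (chr12:55492658-55492807, minus strand), Nfkbie (chr17:45555540-45555689, plus strand) and Rel (chr11:23770980-23771129, minus strand), the bases from 160 to 11 before the start are given. For Tnfaip3 (chr10:19015411-19015440, minus strand) and Nfkb2 (chr19:46304688-46304717, plus strand) 30 bases are given, since exons annotated by GENCODE cover part or all of the windows they come from. Nfkb2 has 3 windows, each with a kB match, and a stretch of only the first is given. The second holds no base of such exons. In Rel and in this stretch of Nfkb2 a pair of matches overlaps by all but 1 base.
Nfkbia: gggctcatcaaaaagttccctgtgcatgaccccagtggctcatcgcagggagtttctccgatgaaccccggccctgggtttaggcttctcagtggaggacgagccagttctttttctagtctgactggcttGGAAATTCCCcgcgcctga
Nfkbie: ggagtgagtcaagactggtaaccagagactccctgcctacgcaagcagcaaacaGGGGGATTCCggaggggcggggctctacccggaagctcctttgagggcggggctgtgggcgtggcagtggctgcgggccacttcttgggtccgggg
Rel: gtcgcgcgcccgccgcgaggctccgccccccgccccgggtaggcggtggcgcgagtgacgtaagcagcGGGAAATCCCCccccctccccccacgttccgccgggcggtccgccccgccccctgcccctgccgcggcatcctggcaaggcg
Tnfaip3: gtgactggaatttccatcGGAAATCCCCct
Nfkb2: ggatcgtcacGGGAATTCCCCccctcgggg

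Among the 10 genes, Tnfaip3, Nfkbie, Nfkbib and Nfkb1 were called higher in grafts by edgeR's quasi-likelihood test (adjusted p under 0.05), and none was lower. These 4 of 10 stand beside 46.7% called in either direction over all 16500 genes tested, 23.3% higher and 23.4% lower. Of the 5 genes that restrain or modify NF-kB, grouped here as inhibitors, 3 were called, and of the 5 subunit genes 1. Their median log2 fold changes were 0.59 and 0.27, against 0.05 for all genes tested. The fitted change was above 0 in all 10 genes, as it was in 53.0% of all genes. With scaling to library totals alone, the median of all genes shifted by -0.19, Nfkbia and Nfkbiz turned to slightly below 0, and the call of Nfkb1 ended. That scaling called 15.1% of all genes higher and 29.6% lower, and 3 of the 10 members, all higher. Groups did not overlap, with every graft pool above every resting pool, in 3 of the 10 genes, against 16.4% of all genes, or 35.1% counting either direction.

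**Figure D1:**
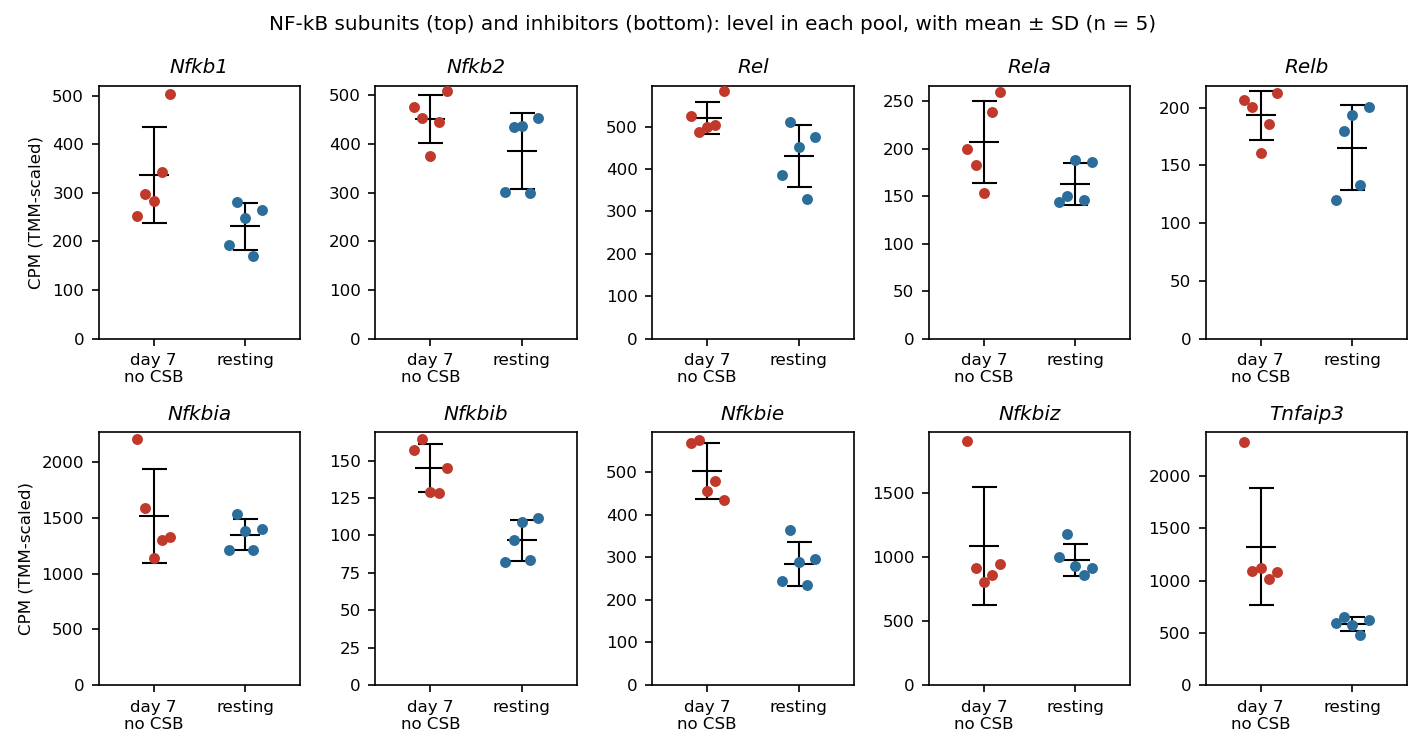
TMM-scaled CPM of each gene (vertical axis, from 0) in the 5 pools of day 7 grafts without blockade (red) and the 5 pools of resting lung (blue), with mean and SD; subunits in the top row, inhibitors below. Nfkbib, Nfkbie and Tnfaip3 show no overlap between the groups, and a single graft pool lies far above the rest for Nfkbiz and Tnfaip3.

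Tnfaip3 had the largest change of the 10. It encodes a ubiquitin-editing enzyme that shuts off signalling between receptors and IKK (ENSMUSG00000019850, chromosome 10, 19000910 to 19015657, mm10). In graft pools 1 to 5 it stood at 2324, 1089, 1119, 1011 and 1080 CPM, against 597, 653, 573, 475 and 622 CPM in resting pools 1 to 5. The lowest graft pool was thus above the highest resting pool, and graft pool 1 lay far above the other graft pools, which stayed close together. The log2 fold change was 1.18 ± 0.22 (SE, edgeR quasi-likelihood adjusted p = 0.000648). Without graft pool 1 it was 0.89, with an adjusted p of 6.8e-05.

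Nfkbie encodes IkB-epsilon, a cytoplasmic inhibitor whose gene is induced by NF-kB with a delay (ENSMUSG00000023947, chromosome 17, 45555703 to 45563169). Graft pools had 569, 576, 455, 479 and 434 CPM, against 245, 364, 288, 234 and 295 CPM in resting pools. The groups did not overlap, and in grafts pools 1 and 2 were the higher ones. Its log2 fold change of 0.82 ± 0.14 had an edgeR adjusted p of 0.000378. Nfkbib encodes IkB-beta, which is resynthesised slowly after degradation (ENSMUSG00000030595, chromosome 7, 28758251 to 28767512). It had 157, 165, 129, 129 and 145 CPM in graft pools, against 82.0, 96.8, 109, 83.7 and 112 CPM in resting pools. Again every graft pool was above every resting pool, by a smaller margin, and the log2 fold change was 0.59 ± 0.12 (edgeR adjusted p = 0.00146). Of the annotated exonic bases of Nfkbib 16.4% overlap genes on the opposite strand, Ccer2 and Sirt2, and of those of Nfkb2 18.1% overlap Psd and a noncoding transcript. No source used here says whether counting took strand into account, so part of the reads of these genes is uncertain.

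Nfkbia encodes IkB-alpha, the inhibitor that is degraded first and resynthesised fastest (ENSMUSG00000021025, chromosome 12, 55489410 to 55492647). Its 5 graft pools had 2213, 1593, 1144, 1305 and 1333 CPM, against 1213, 1535, 1387, 1210 and 1406 CPM in resting pools. The groups overlapped widely, and pool 1 was again the highest graft pool. The log2 fold change of 0.17 ± 0.17 was not called (edgeR adjusted p = 0.457), and without graft pool 1 it was 0.005. Nfkbiz encodes IkB-zeta, a nuclear member of the inhibitor family that acts as a coactivator of secondary response genes (ENSMUSG00000035356, chromosome 16, 55811375 to 55838899). It had 1904, 914, 806, 855 and 945 CPM in graft pools, against 999, 1176, 925, 855 and 909 CPM in resting pools. Apart from graft pool 1, the graft values lay within or below the range of resting lung. Its log2 fold change was 0.16 ± 0.22 (edgeR adjusted p = 0.597), and without graft pool 1 it was -0.13 (adjusted p = 0.427).

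Among the subunits, Nfkb1 was the only gene called. It encodes the precursor that is processed to a DNA-binding subunit without an activation domain of its own (ENSMUSG00000028163, chromosome 3, 135584655 to 135691547). Graft pools had 253, 298, 283, 344 and 503 CPM, against 192, 282, 248, 169 and 265 CPM in resting pools. The groups overlapped, and graft pool 5 was well above the others. The log2 fold change was 0.54 ± 0.20 with an edgeR adjusted p of 0.0383. This call ended without graft pool 4 or 5 or resting pool 1, 3 or 4 (adjusted p 0.0556, 0.0822, 0.0805, 0.0556 and 0.0807), and the log2 fold change without graft pool 5 was 0.36.

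Rela encodes the subunit with the main transactivation domain of the canonical dimer (ENSMUSG00000024927, chromosome 19, 5637483 to 5648130). It had 200, 183, 154, 239 and 260 CPM in graft pools, against 144, 150, 188, 145 and 186 CPM in resting pools. Pools 4 and 5 were the highest in the grafts, and pools 2 and 3 lay in the resting range. The log2 fold change of 0.35 ± 0.15 missed the threshold (edgeR adjusted p = 0.0756), but passed it without graft pool 3 (0.45, adjusted p = 0.0229). Rel encodes c-Rel, a subunit known from lymphoid and myeloid cells (ENSMUSG00000020275, chromosome 11, 23736847 to 23770970). It stood at 525, 488, 500.4, 504 and 584 CPM in graft pools, against 387, 512, 451, 329 and 475 CPM in resting pools. Graft pools were close together, and of the resting pools only pool 2 reached them. The log2 fold change was 0.27 ± 0.13 (edgeR adjusted p = 0.109).

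Nfkb2 and Relb encode the partners of the noncanonical pathway, in which receptors such as CD40 and the lymphotoxin beta receptor trigger processing of the Nfkb2 precursor. Nfkb2 (ENSMUSG00000025225, chromosome 19, 46304320 to 46312385) had 477, 453, 374, 446 and 509 CPM in graft pools, against 301, 435, 437, 299 and 452 CPM in resting pools. Relb (ENSMUSG00000002983, chromosome 7, 19606217 to 19629438) had 207, 201, 161, 185 and 213 CPM in graft pools, against 120, 180, 194, 133 and 201 CPM in resting pools. In both genes pool 3 was the lowest graft pool, resting pools 1 and 4 were the lowest of all, and the other resting pools lay among the graft values. Neither passed the test, with log2 fold changes of 0.23 ± 0.15 and 0.22 ± 0.15 (edgeR adjusted p = 0.231 and 0.255).

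**Figure D2:**
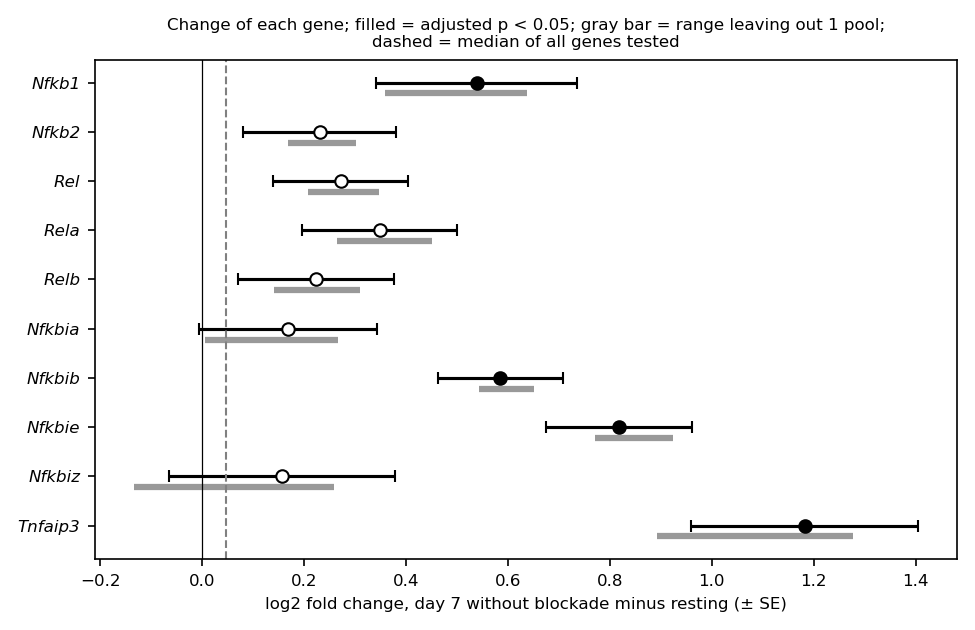
Log2 fold change (horizontal axis, day 7 without blockade minus resting) with its SE for each gene; filled points passed the test, the gray bar spans the values obtained by leaving out 1 pool at a time, and the dashed line is the median of all genes tested. Tnfaip3 and Nfkbie lie farthest to the right, and the bar of Nfkbiz crosses 0.

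Pools of the same group differed among themselves, and several genes moved together. In resting lung, pools 1 and 4 held the lowest values of 8 of the 10 genes, including all 5 subunits. Those pools also had the lowest summed level of 15 eosinophil markers, 2348 and 2676 CPM, against 3712, 4113 and 3468 CPM in resting pools 2, 3 and 5. The eosinophil markers did not move as one in resting pool 4. Adgre1, Alox15 and the granule gene Ear1 were at their lowest there (389.2, 406.1 and 153.1 CPM). The granule genes Epx and Prg2 were high there (163.2 and 600.5 CPM), exceeded only in resting pool 3 (170.9 and 697.4 CPM). In the grafts the eosinophil markers summed to 1712, 1829, 2354, 3272 and 4284 CPM in pools 1 to 5. Nfkb1 was highest in pool 5 and lowest in pool 1. Nfkb2, Rel, Rela and Relb were also highest in pool 5. Of these, Nfkb2, Rel and Relb were higher in pool 1 (477, 525 and 207 CPM) than in pools 2 to 4. Tnfaip3, Nfkbiz and Nfkbia were instead highest in graft pool 1, where the summed eosinophil markers were lowest. The eosinophil markers did not move as one there either. Among graft pools, Ccr3, Alox15 and Adgre1 were at their lowest in pool 1 (170.7, 292.0 and 452.4 CPM). Cd33 and Gata2 were at their highest there (278.8 and 91.84 CPM). Siglecf in that pool (271.9 CPM) was exceeded only in graft pool 5 (300.1 CPM). Summed markers of neutrophils were highest in graft pool 1 (10824 CPM, against 5332 to 8905 CPM in the other graft pools). Those of monocytes and macrophages were highest in pool 2 and those of T cells in pool 5. The neutrophil markers did not move as one in graft pool 1. There S100a8 was at its highest (3116 CPM, against 430 to 994 CPM in the other graft pools). Among graft pools, S100a9, Csf3r, Cxcr2, Mmp9, Ltf, Elane and Mpo were at their highest there too. Camp, Ngp, Mmp8 and Ly6g were neither highest nor lowest in that pool. Retnlg alone was at its lowest there (1385 CPM, against 2790 to 7127 CPM). The part of these differences between pools in the results was not tested. Over all genes tested, the median SD of log2 levels within a group was 0.26 in grafts and 0.24 in resting lung. Nfkbiz and Tnfaip3 exceeded that most in the grafts, with 0.51 and 0.50, and stayed below it in resting lung, with 0.18 each. Nfkbia and Rela also exceeded it in the grafts, with 0.37 and 0.30, and stayed below it in resting lung, with 0.15 and 0.19. Nfkb1 exceeded it in both groups, with 0.38 in grafts and 0.315 in resting lung. Rel had only 0.10 in the grafts and 0.25 in resting lung.

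**Figure D3:**
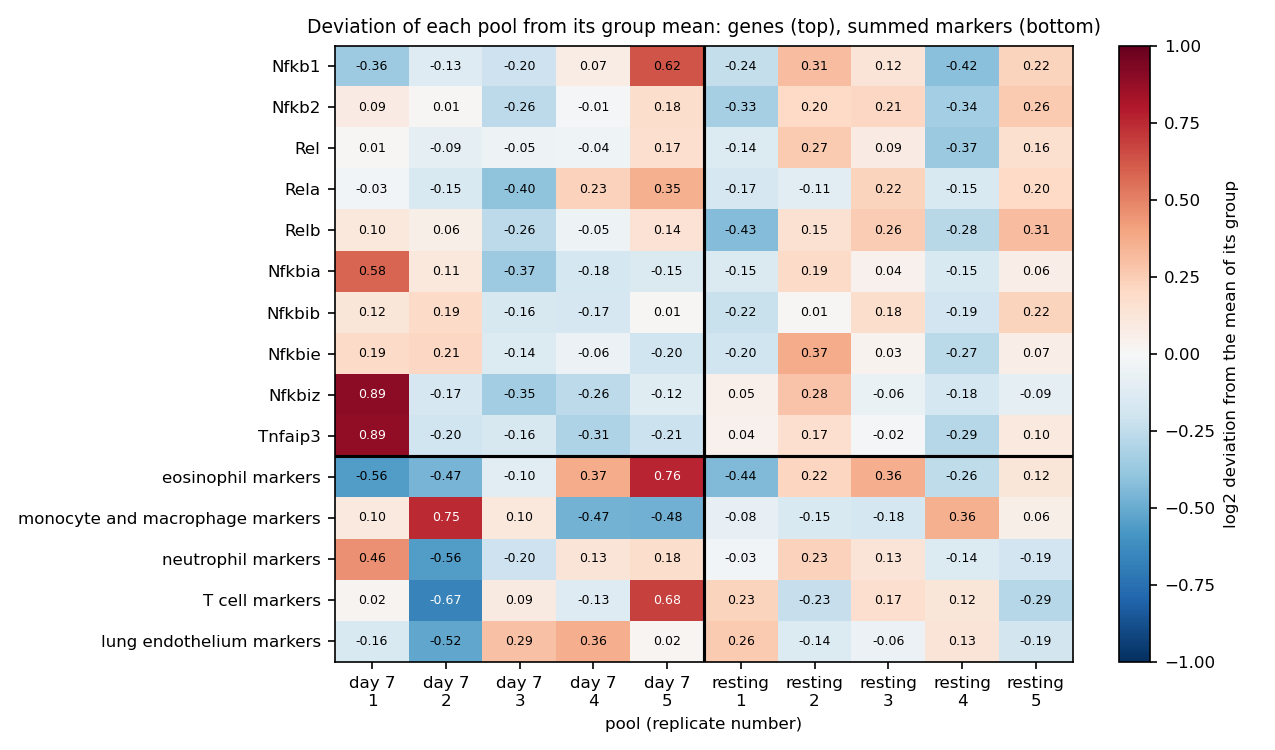
Log2 deviation of each pool (columns) from the mean of its own group, for the 10 genes (upper rows) and for summed levels of marker lists (lower rows); red is above and blue below the group mean. Graft pool 1 is 0.89 above its group mean for both Nfkbiz and Tnfaip3, and resting pools 1 and 4 are blue for every subunit.

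Ratios of 2 genes within a library do not depend on scaling. The ratio of Nfkb2 to Nfkb1 counts was 1.88, 1.52, 1.32, 1.30 and 1.01 in graft pools, against 1.57, 1.54, 1.76, 1.77 and 1.71 in resting pools. It was more widely spread in the grafts and lowest in pool 5, and the mean log2 ratio differed by -0.27 (exact two-sided permutation p = 0.119, adjusted p = 0.476 over 4 ratios). Relb to Rela differed by -0.09, Rel to Rela by -0.05 and Nfkbia to Rela by -0.20 on the log2 scale, with exact two-sided permutation p of 0.532, 0.722 and 0.405, where 5 against 5 can reach 0.00794. These differences moved by over 1.5 times when a library was left out. Nfkb2 to Nfkb1 ranged from -0.39 without graft pool 1 (exact permutation adjusted p = 0.0636) to -0.16 without graft pool 5, and Nfkbia to Rela from -0.35 to -0.07 without the same pools. Relb to Rela ranged from -0.16 without resting pool 1 to -0.02 without graft pool 4, and Rel to Rela from -0.14 without graft pool 3 to 0.05 without resting pool 2. The ratio of Nfkbia to Rela was 11.1, 8.71, 7.45, 5.46 and 5.12 in graft pools, against 8.44, 10.2, 7.38, 8.32 and 7.57 in resting pools. Its 2 lowest values were those of graft pools 4 and 5.

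Between genes, levels were compared as CPM per kilobase of annotated exon. Nfkbia was the most abundant in both groups, at 943 ± 261 CPM per kilobase in grafts and 839 ± 86.2 in resting lung (SD, n = 5 each), a level above that of 99.6% of genes tested in each group. Nfkbiz followed at 216 ± 91.9 in grafts and 194 ± 24.9 in resting lung. Its range was clear of that of Nfkbia in both groups. Tnfaip3 was the third in grafts, at 183 ± 77.5 CPM per kilobase, with a range overlapping those of Nfkbiz and Nfkbie, and the fifth in resting lung, at 80.8 ± 9.38. Nfkbie was at 165 ± 21.6 in grafts and 93.7 ± 16.9 in resting lung, where Nfkbie, Nfkb2 (84.0 ± 17.0) and Tnfaip3 overlapped. In grafts Nfkb2, at 98.5 ± 10.9, led the subunits. Rel, Rela and Nfkbib overlapped there, at 69.7 ± 5.05, 67.4 ± 13.9 and 66.8 ± 7.47 CPM per kilobase, and Relb followed at 49.8 ± 5.37, below the range of Nfkbib. In resting lung Rel, Rela, Nfkbib and Relb ran from 57.7 ± 9.76 to 42.6 ± 9.43 CPM per kilobase with each overlapping the next. The place of Nfkb1 depended on the length used. With all exons it was the lowest of the 10, at 27.9 ± 8.22 in grafts and 19.2 ± 4.01 in resting lung. With the longest transcript it was at 81.0 ± 23.9 and 55.7 ± 11.7 CPM per kilobase, overlapping Rel and Rela in both groups.

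**Figure D4:**
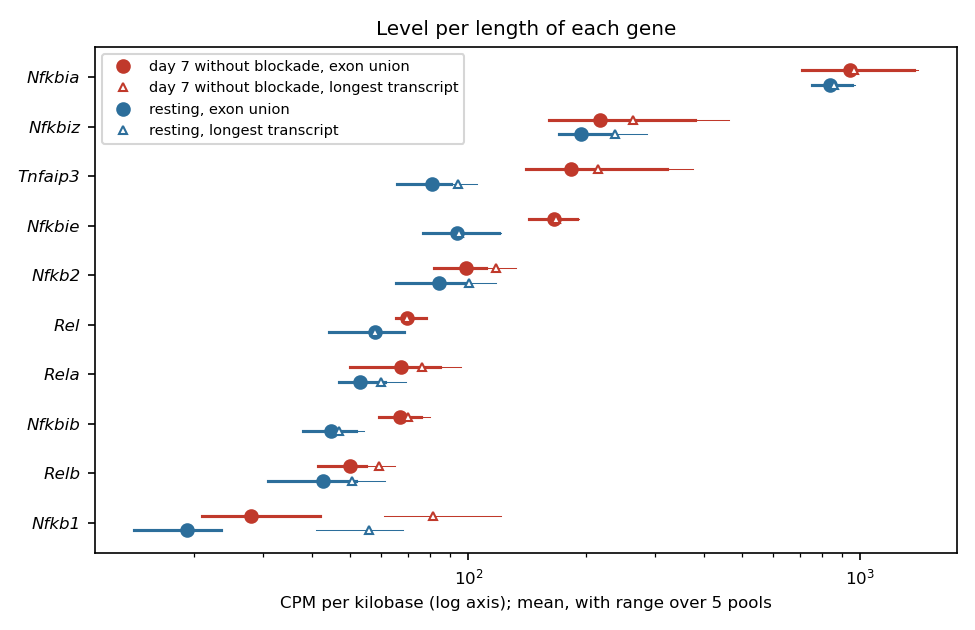
Level per length (CPM per kilobase, log axis) of each gene in day 7 grafts without blockade (red, upper) and resting lung (blue, lower): circles are means with all exons as length, triangles with the longest transcript, and lines span the 5 pools. Nfkbia lies above all other genes in both groups, and Nfkb1 moves most between the length choices.

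Genes with the most similar pattern were sought by the root mean square distance between mean-centred log2(CPM + 1) values over the 10 libraries. Nfkb2 and Relb were each other's nearest gene among all tested, at a distance of 0.051. Nearest to Tnfaip3 were Cers6 and Icam1 (0.152 and 0.165), and to Nfkbie Ptafr and Pcgf5 (0.077 and 0.090). For Nfkbib they were Ifnar2 and Nt5dc3 (0.090 and 0.095), for Nfkb1 Malat1 and Tes (0.104 and 0.116), for Rel Uba6 and Gpbp1 (0.053 and 0.055) and for Rela Sipa1l2 and Atp13a3 (0.074 and 0.096). Nfkbia and Nfkbiz had Gm37305 in common, at 0.104 and 0.163, beside Fgd3 and Ptgs2os2. After Relb and Nfkb2, the next were Slc30a9 (0.083) for Nfkb2 and Fbxo47 (0.101) for Relb.

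Upstream of the inhibitors, 4 of 10 genes of the IKK complex and its activating kinases were called higher and 0 lower, with a median log2 fold change of 0.30. That is 4 of 10 called, beside 46.7% of all genes tested in either direction and 23.3% higher. Ikbke, an IKK-related kinase of the interferon response, stood at 253, 109, 94.9, 60.0 and 49.6 CPM in graft pools, against 14.5, 11.6, 10.02, 15.96 and 9.34 CPM in resting pools, a log2 fold change of 3.21 ± 0.41 (edgeR adjusted p = 3.04e-05). The groups did not overlap, and graft pool 1 was again the highest. Tbk1, its close relative, averaged 166.9 ± 27.2 CPM in grafts and 92.8 ± 14.3 CPM in resting lung (SD, n = 5 each; log2 fold change 0.85 ± 0.14). Ikbkb, the IKK subunit that phosphorylates the classical inhibitors, had a log2 fold change of 0.02 ± 0.12 and was not called.

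Of 22 adaptors and ubiquitin ligases that act between receptors and IKK, 11 were called higher and 2 lower, with a median of 0.36, beside 23.3% and 23.4% of all genes. Malt1, the protease of the complex it forms with Bcl10, averaged 258.5 ± 73.1 CPM in grafts and 73.9 ± 5.04 CPM in resting lung, and Ripk2, the kinase of the NOD receptors, 54.3 ± 9.91 and 23.4 ± 4.196 CPM. The 2 lower genes were Ticam1, the adaptor TRIF of Tlr3 and of internalised Tlr4, with 10.1 ± 1.62 CPM in grafts and 15.3 ± 3.06 CPM in resting lung, and Traf5, with 12.6 ± 2.48 and 18.6 ± 3.08 CPM. Scaled to library totals, the list had 8 genes called higher and 3 called lower.

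Other inhibitors and feedback genes were called higher in 7 of 15 cases and lower in 1, with a median of 0.27, a share called that is near the 46.7% of all genes (23.3% higher and 23.4% lower). Scaled to library totals, 3 of them were called in each direction. Otulin, which removes linear ubiquitin chains, averaged 27.3 ± 8.98 CPM in grafts and 10.3 ± 2.62 CPM in resting lung. Ppp2ca, a catalytic subunit of protein phosphatase 2A, averaged 318.6 ± 63.4 and 123.4 ± 30.9 CPM. Pdlim2, which promotes the degradation of nuclear Rela, fell to 34.1 ± 3.20 CPM in grafts, against 85.7 ± 4.78 CPM in resting lung (log2 fold change -1.33 ± 0.10).

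The receptors that signal to NF-kB were called higher in 9 of 17 cases and lower in 1, with a median of 0.78, beside 23.3% higher and 23.4% lower over all genes. Cd40, which also starts the noncanonical pathway, averaged 130.7 ± 57.6 CPM in grafts and 20.6 ± 3.74 CPM in resting lung, and Tlr1, a partner of Tlr2, 40.2 ± 13.1 and 6.92 ± 2.39 CPM. Il1r1, the signalling receptor of interleukin-1, fell to 3.91 ± 0.77 CPM in grafts, against 13.9 ± 3.27 CPM in resting lung. Endothelial markers, given above, were lower in the same libraries, and their part in this result was not tested.

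NF-kB target genes were called higher in 23 of the 31 tested and lower in 0, with a median of 1.40, beside 23.3% and 23.4% of all genes. Scaled to library totals, 22 were called higher, beside 15.1% of all genes. Ccl20 was the target that did not pass the filter on low counts. Nos2, the inducible nitric oxide synthase, and Ccl5, a chemokine for T cells and eosinophils, had the largest rises in the list, with log2 fold changes of 5.48 ± 0.47 and 2.48 ± 0.23 (edgeR adjusted p = 8.91e-07 and 1.19e-06). Nos2 averaged 210.1 ± 134 CPM in grafts and 4.65 ± 1.20 CPM in resting lung, and Ccl5 184.4 ± 63.8 and 33.1 ± 5.72 CPM. Traf1 and Birc3 stand both in this list and in that of the adaptors. Macrophages make many of these products, and the macrophage markers given above were higher in the same libraries. Their part in the result was not tested.

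**Figure D5:**
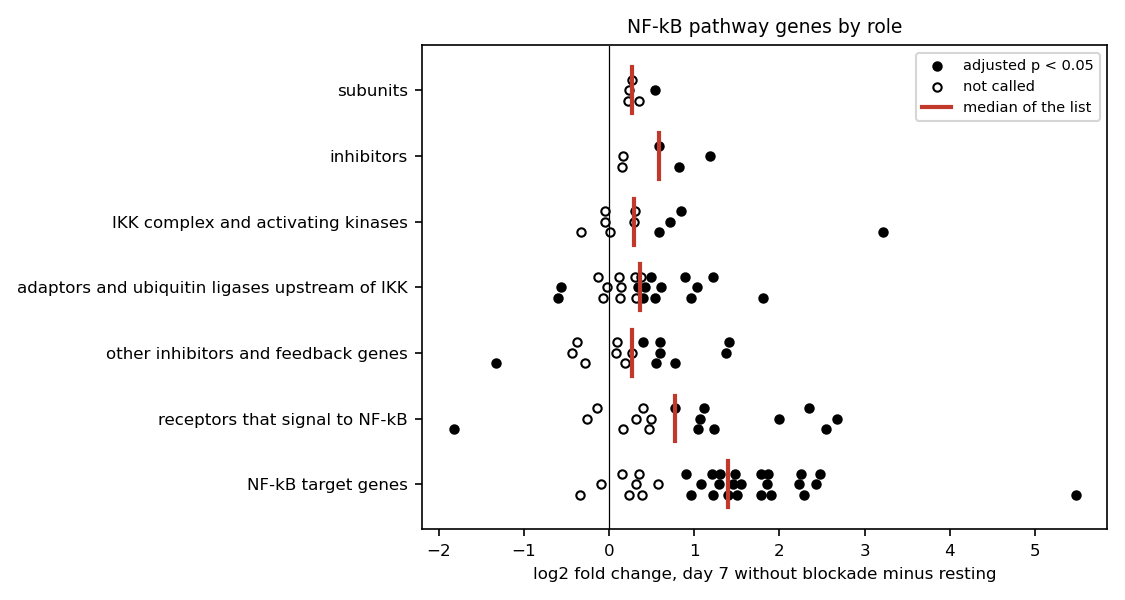
Log2 fold change (horizontal axis, day 7 without blockade minus resting) of each tested gene of the NF-kB pathway, by role; filled points passed the test and red bars are list medians. The median was 0.27 for subunits, 0.59 for inhibitors and 1.40 for target genes.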

How the data were processed

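Both deposited tables hold raw counts per gene, in whole numbers, with library totals that are not equal. The submitters' processing notes name build mm10 and STAR 2.5.2b, Subread 1.5.2, featureCounts, Trimmomatic 0.36 and bcl2fastq 2.17, with no settings, strand option or annotation release. Columns were tied to samples by name, which gave 5 libraries per group; 10 columns whose headings match no label were not used. Symbols, coordinates and exon lengths came from GENCODE M21. edgeR's filterByExpr kept 16500 genes and removed 32815. The main test was that of edgeR 4.0.16 in R 4.3.3 (robust quasi-likelihood F test, TMM scaling, group as the only term) with Benjamini-Hochberg adjustment over all genes tested. A standard error is the absolute log2 fold change over the root of its F statistic. Ratios were tested by exact permutation in scipy 1.17.1. The fit was first tested on simulated data. No pair of libraries in a group agreed within sampling noise (chi-square per degree of freedom at least 6.57). Alternatives were DESeq2 1.42.0, limma 3.58.1 (voom), other scalings and filters, a replicate block and leaving out each library.

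The members, lists and tests were chosen with earlier results of these data known. Named pathway genes are the 2 largest rises and the 2 largest falls called in each list, at 5 CPM or more in the higher group, and for each member the 2 genes nearest in pattern. The eosinophil markers, the neutrophil markers, Ikbkb and Tnf were named after their values were seen.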

Additional observations from a re-analysis of the deposited data

Results flagged for a closer look

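In the groups of 5 pools, 28 sets of values were examined for a pool far from the rest (the gap to its neighbor over 0.71 of the whole range), and chance alone marks about 1 set in 20. It marked 2 sets, both for the same library. Graft pool 1 had 1904 CPM of Nfkbiz, with a gap of 0.874 of the range, and 2324 CPM of Tnfaip3, with a gap of 0.918 of the range.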

How the results depend on the processing

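Tnfaip3, Nfkbie and Nfkbib kept their direction and their call under all 18 alternatives, with log2 fold changes of 0.89 to 1.29, 0.63 to 0.93 and 0.39 to 0.70. The call of Nfkb1 ended under 7 of 18, including library totals alone (0.365, adjusted p = 0.157) and upper-quartile factors (0.499, adjusted p = 0.0693). Leaving out 1 library gave 3 to 5 called members and 7249 to 7996 called genes, against 4 and 7702. Without a filter on low counts 11577 genes were called, 6715 of them lower, and 7 members, all higher (Nfkb2, Rel and Rela in addition). DESeq2, whose own filter kept more genes, called 6216 of its 28308 lower, against 3859 of 16500, and library totals alone 2495 higher. With library totals alone Nfkbia and Nfkbiz were at -0.029 and -0.045, and without graft pool 1 Nfkbiz was at -0.133 (-0.133 to 0.259 leaving out 1 library). The difference in the ratio of Rel to Rela, -0.048, was 0.021 without graft pool 4 and 0.046 without resting pool 2, and ranged from -0.136 to 0.046. The cause of these changes was not tested. Equal replicate numbers did not pair the libraries (correlations of same-numbered libraries from -0.188 to 0.120, and none best with its own number); with the replicate block 6953 genes and 4 members were called, and the sign-flip test of ratios could not go below 0.0625. Level per length with the longest transcript left the mean within 1 SD except for Nfkb1, Nfkb2, Relb, Nfkbiz and Tnfaip3.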

Other observations

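Tnf, the cytokine that engages the receptors upstream of Tnfaip3, had 1407, 660.5, 135, 94.0 and 130.4 CPM in graft pools 1 to 5, against 107, 165, 124, 92.0 and 161 CPM in resting pools. Graft pools 1 and 2 were above all resting pools, and graft pools 3 to 5 lay within their range. The log2 fold change was 1.90 ± 0.66 (SE, edgeR quasi-likelihood adjusted p = 0.0306). Pool 1 was also the highest graft pool for Tnfaip3, Nfkbiz and Nfkbia.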
